A study of Mus musculus with 6 samples.

Results

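The genes described here encode collagens, laminins and other glycoproteins of the extracellular matrix, in EO771 cells, a mouse mammary tumour line. They were taken from the deposited table by symbol: collagen chains, the laminin alpha, beta and gamma chains, nidogens, perlecan (Hspg2), fibronectin (Fn1), the small leucine-rich proteoglycans decorin and biglycan, Sparc, thrombospondins, tenascin-C, fibulins, fibrillins, versican and the lysyl oxidases. The rule found 67 of the 19832 genes in the table; members of these families without a row in it were not analysed here. Of these, 23 had a mean of at least 1 FPKM (fragments scaled to transcript length and to the size of the library) over all libraries and were tested, and 44 lay below it and are listed only. There were 3 libraries of EO771 cells treated with recombinant lipocalin-2 protein (LCN2) and 3 of EO771 cells labelled Control. The labels give no dose, exposure time, culture or batch, so it is not known whether the replicates were separate cultures, and the p-values refer to the spread among these 6 libraries alone. The comparison asks how LCN2 alters the transcripts of these tumour cells.

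Epithelial cells rest on a basement membrane in which laminin trimers of 1 alpha, 1 beta and 1 gamma chain and a network of type IV collagen are joined by nidogen and perlecan. The interstitial matrix is built from fibrillar collagens, fibronectin and the proteoglycans that bind them, and lysyl oxidases cross-link it. Carcinoma cells secrete part of this matrix themselves and fibroblasts of the tumour stroma secrete much of the rest.

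The column sums lay between 391569 and 410808, and between 10251 and 10340 genes reached 1 FPKM in each library. LCN2 replicate 2 stood apart from its group: its score on the first principal component was 4.35, beside 15.7 and 16.5 for LCN2 replicates 1 and 3 and -17.3 to -8.08 for the Control libraries. Results are therefore given with and without single libraries where a call changed. The epithelial markers Krt8, Krt18, Krt19, Epcam and Cldn4 each had a mean of at least 1 FPKM, while Cdh1, which encodes E-cadherin, averaged 0.148 FPKM. Between the groups, Cldn4 (log2 fold change 1.23, limma adjusted p = 0.0055) and Krt18 (0.17, 0.030) were called higher with LCN2, and Krt8 (-0.27, 0.0094) and Krt19 (-0.22, 0.022) lower. Cldn4 was called whichever library was left out. Krt8 lost its call without LCN2 replicate 1 (limma adjusted p = 0.052), and Krt18 and Krt19 without either LCN2 replicate 1 or 3 or Control replicate 1 or 3 (up to 0.12). Krt18 also lost it with values as deposited (limma adjusted p = 0.13) or quantile normalized (0.062). Fibroblast markers were at or near 0 (Thy1 and Pdgfrb listed at 0 in every library, Acta2 at a mean of 0.00639 and Pdpn at 0.0191 FPKM) except Pdgfra, which averaged 3.96 FPKM. The summed level of the 5 fibroblast markers in the table was 3.49 to 3.87 FPKM in LCN2 libraries and 3.69 to 4.66 FPKM in Control libraries. The 3 leukocyte markers in the table (Csf1r, Ptprc and Itgam) each had a mean below 1 FPKM and were not tested. They summed to 0.928 to 1.15 FPKM in LCN2 libraries and 1.40 to 1.62 FPKM in Control libraries, with no overlap. Of the 3, Itgam alone separated the groups (0.631 to 0.839 FPKM with LCN2, 1.09 to 1.34 FPKM in Control), while Csf1r and Ptprc overlapped. The part of these marker differences in the results on matrix genes was not tested. The markers of mast cells in the table (Cpa3, Fcer1a and Tpsb2) were listed at 0 in every library. In bulk RNA of this kind, fewer cells of a type and less RNA per cell cannot be told apart.

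Most of the summed level of the matrix genes in EO771 cells came from Dcn and Fn1. A mean of 1 FPKM was reached by 23 of the 67 genes, beside 10309 of the 19832 genes in the table. At 0 in every library were 12 of the 67, beside 5744 of the 19832. FPKM is scaled to transcript length, so levels of different genes can be set side by side if the deposited values are FPKM. That unit was inferred from the values. The proteoglycan gene Dcn was highest, with a mean of 550 FPKM over the 6 libraries, followed by Fn1 with 355 FPKM. Together they made up 57.7% to 59.5% of the summed FPKM of the 67 genes in LCN2 libraries, and 54.6% to 55.7% in Control libraries. The next 14 genes ran from Sparc (78.3 FPKM) through Lama5 (70.1), Loxl4 (69.2), Thbs1 (65.0), Nid1 (58.5), Lamb3 (48.7), Col8a1 (45.5), Hspg2 (41.6), Lamc1 (41.2), Loxl2 (38.3), Col4a1 (35.8), Lamb2 (31.1) and Col4a2 (19.2) to Col14a1 (15), and the other 7 tested genes were between 1.37 and 4.17 FPKM. Sparc and Lama5, Loxl4 and Thbs1, and Hspg2 and Lamc1 are among the neighbours in this order whose values overlapped between libraries.

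**Figure D1:**
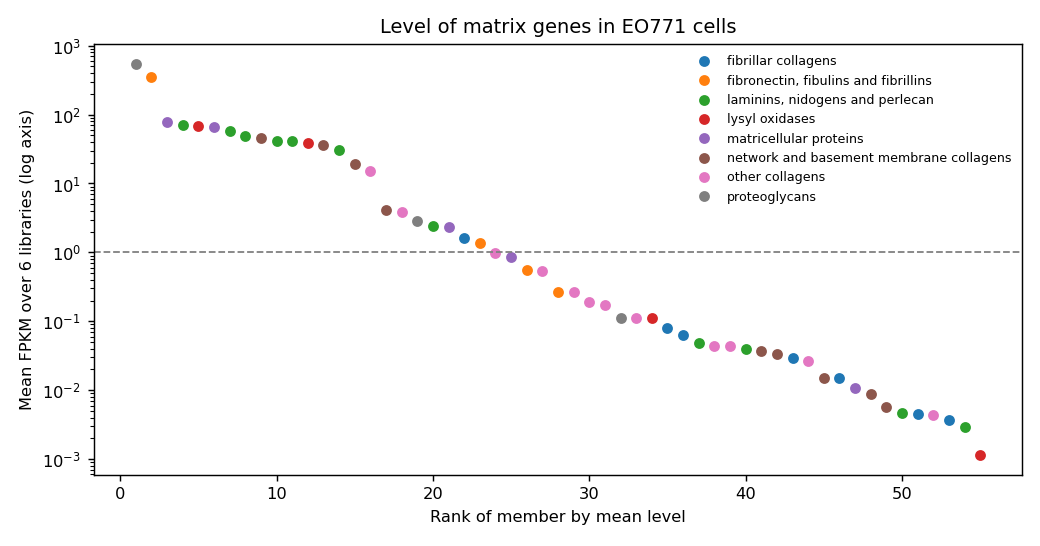
Mean FPKM over the 6 libraries (log axis) of the 55 matrix genes with a value above 0, ranked from highest to lowest and coloured by role; the dashed line is the mean of 1 FPKM needed for testing. Of 67 genes 23 lie above the line, led by Dcn and Fn1, and 12 more, at 0 in every library, are not drawn.

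Most fibrillar collagen genes that could be analysed had transcript levels near 0. Of 9 fibrillar collagen genes in the table only Col27a1 was tested, and Col1a1, Col11a2, Col2a1, Col5a3, Col5a2, Col24a1, Col5a1 and Col11a1 had means between 0 and 0.0813 FPKM. Among laminin chains Lama3, Lamb1, Lamc3, Lama2, Lama4 and Lama1 lay at or below 0.0485 FPKM, so that Lama5 was the single alpha chain above 1 FPKM. The other genes listed only were the collagens Col4a3, Col15a1, Col8a2, Col4a4, Col4a6, Col6a1, Col9a3, Col22a1, Col20a1, Col28a1, Col16a1, Col6a5, Col12a1, Col6a3, Col23a1, Col26a1, Col19a1, Col9a2, Col6a6, Col13a1 and Col25a1, with Vcan, Fbln1, Fbn1, Fbln7, Tnc, Thbs2, Loxl3, Loxl1 and Lox. Nearest to the limit were Fbn2, with a mean of 1.37 FPKM, just inside it, and Col6a1 (0.977) and Tnc (0.862), just outside. In all, 12 of the 44 were listed at 0 in every library, and a listed 0 may stand for an estimate that failed.

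With LCN2, 6 of the 23 tested matrix genes rose and 2 fell. Lamb3, Nid1, Dcn, Col8a1, Loxl4 and Fn1 were higher, and Col14a1 and Thbs1 were lower. All changes were small: the largest, in Lamb3, was 0.42 on the log2 scale, and the median size of the 8 was 0.32, against 0.31 for all genes that passed. The test was limma on log2(FPKM + 1) after scaling between libraries, fitted to all 10309 genes that averaged 1 FPKM or more, with Benjamini-Hochberg adjusted p under 0.05 over all of them. Of all genes tested 11.7% were called higher and 9.94% lower (21.6% in either direction), beside 26.1% and 8.70% of the matrix genes. The median log2 fold change was 0.036 over the 23 matrix genes and -0.0014 over all genes tested. After scaling, 10 matrix genes had all LCN2 libraries above all Control libraries and 5 had them all below, together 65.2%, where 44.5% of all genes tested had groups that did not overlap. Lamb3, Nid1, Dcn and Col8a1 were called whichever library was left out, and Loxl4, Fn1, Col14a1 and Thbs1 were not. The number higher was between 4 and 7 and the number lower between 0 and 3 when 1 library was left out: without LCN2 replicate 1, 4 were higher and 0 lower, without LCN2 replicate 3, 4 were higher and 1 lower, and without Control replicate 3, 5 were higher and 0 lower. Without LCN2 replicate 2, 7 were higher and 3 lower, and without Control replicate 2, 6 were higher and 3 lower. Of all genes tested, 1204 were higher and 1025 lower with all libraries. Leaving out LCN2 replicate 1 gave 174 and 90, LCN2 replicate 3 gave 300 and 182, and Control replicate 3 gave 303 and 162. The counts were 426 and 220 lacking Control replicate 1, 1596 and 1551 lacking LCN2 replicate 2, and 975 and 809 lacking Control replicate 2. Counts for the gene lists below come from these fits too. Matrix genes tested numbered 24 without LCN2 replicate 1 or Control replicate 3.

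**Figure D2:**
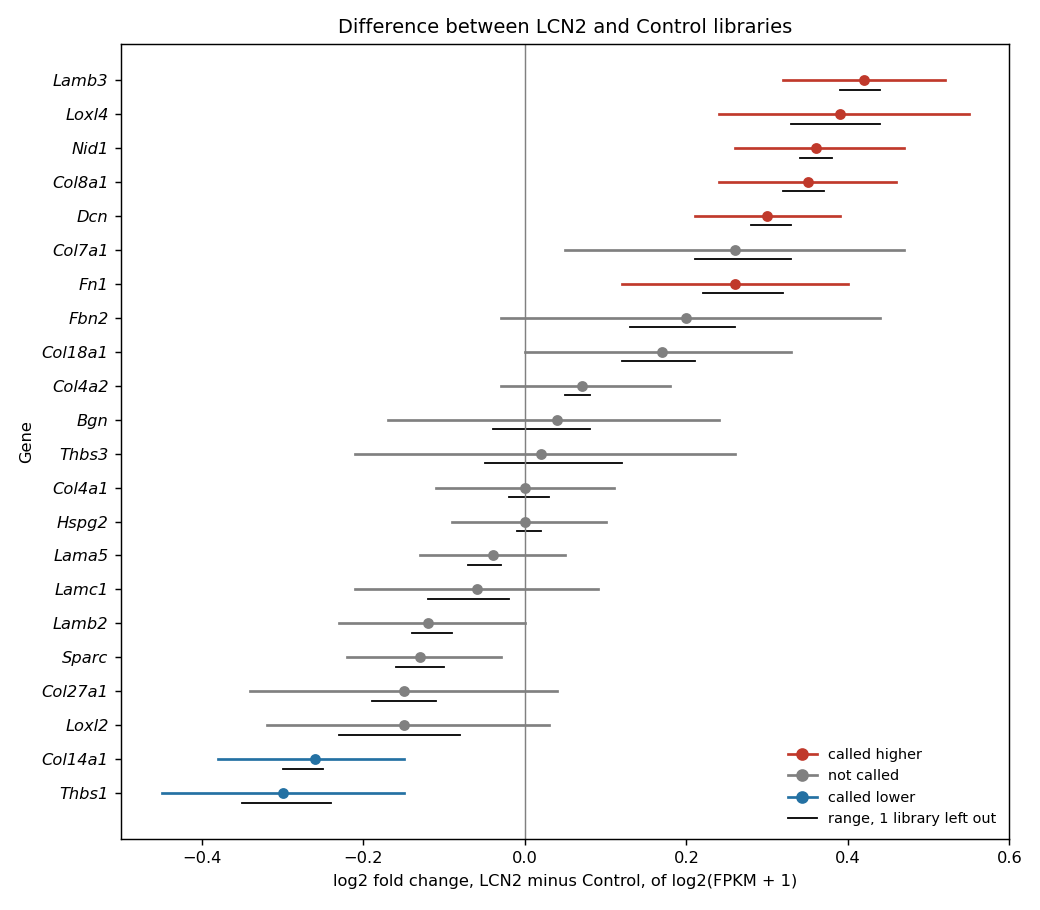
Log2 fold change of log2(FPKM + 1), LCN2 minus Control, of the tested matrix genes named in the text, with its 95% confidence interval; black lines give the range of the estimate when 1 library is left out. Lamb3 (0.42) is at the top and Thbs1 (-0.30) at the bottom, and no interval of a called gene reaches 0.

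**Figure D3:**
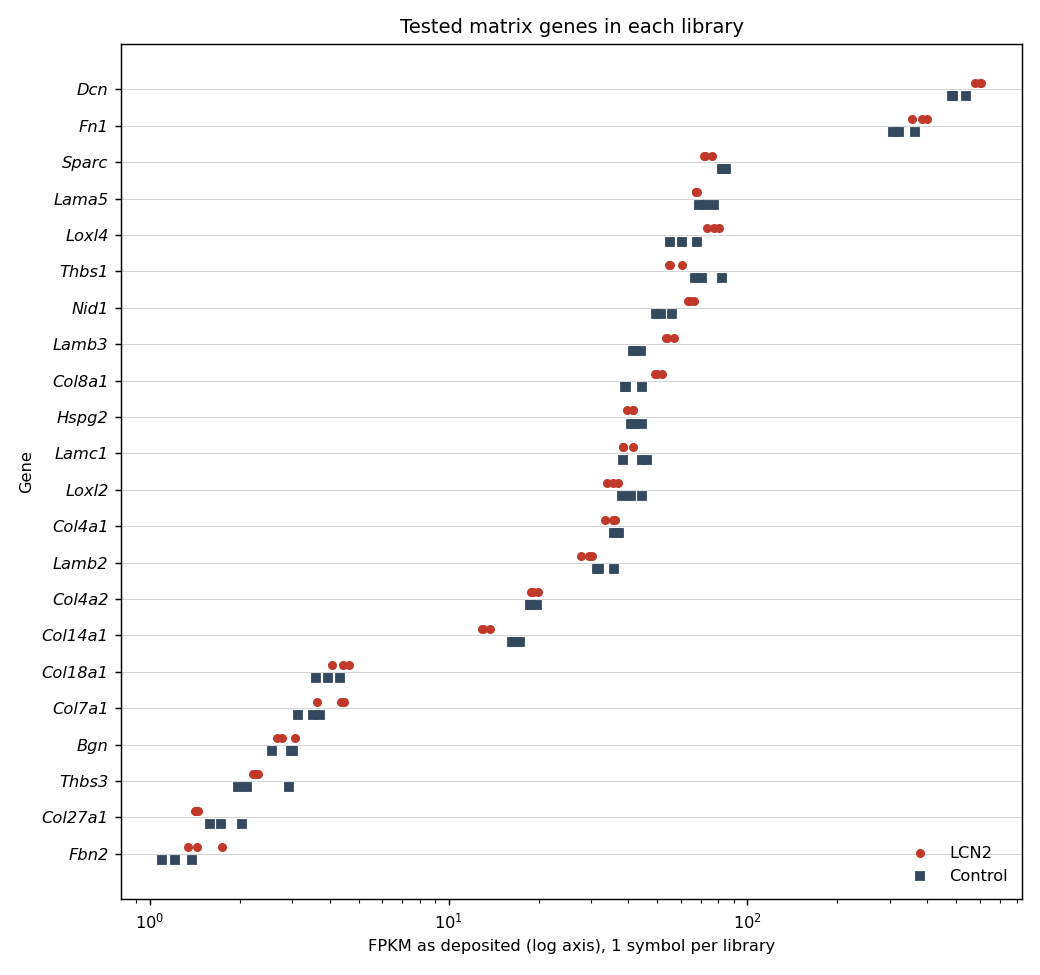
FPKM as deposited (log axis) of the tested matrix genes named in the text in each library, LCN2 as circles above and Control as squares below each gene's line. The groups separate in Lamb3, Nid1, Dcn, Col8a1 and Col14a1, and overlap in Fn1, Hspg2, Col4a1 and Lamc1.

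Among basement membrane genes, the laminin beta 3 chain and nidogen-1 rose with LCN2 while the other abundant components did not pass the test. Lamb3 (chromosome 1, 193207699 to 193343878, GRCm38) encodes the beta chain of laminin-332, an adhesive laminin of epithelia. Lama3, the gene of the alpha chain of that trimer, averaged 0.0485 FPKM and was listed only. Levels of the trimer itself were not measured. Lamb3 had 53.6, 54.0 and 56.9 FPKM in the LCN2 libraries and 42.1, 44.0 and 41.4 FPKM in the Control libraries. Every LCN2 library lay above every Control library, and the 3 in each group were close together. The mean was 54.8 ± 1.81 FPKM with LCN2 and 42.5 ± 1.34 FPKM in Control (SD, n = 3 each), a log2 fold change of 0.42 (SE 0.042, limma adjusted p = 0.0038).

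Nid1 (chromosome 13, 13437551 to 13512269) encodes nidogen-1, which links laminin to type IV collagen. It had 64.4, 63.4 and 66.5 FPKM in the LCN2 libraries, against 49.5, 55.9 and 51.5 FPKM in the Control libraries, with no overlap. Its log2 fold change was 0.36 (SE 0.044, limma adjusted p = 0.0055). Exons of Nid1 overlap those of an antisense gene, and the treatment of strand is not given in the sources used here.

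The chains of the laminins found more widely gave no call. Lama5 had 67.4 ± 0.155 FPKM with LCN2 and 72.7 ± 4.41 FPKM in Control (SD, n = 3 each; log2 fold change -0.04, 95% interval -0.13 to 0.05, limma adjusted p = 0.44). Lamc1 had 39.4 ± 1.72 FPKM with LCN2 and 42.9 ± 3.94 FPKM in Control, and Lamb2 29.2 ± 1.19 FPKM with LCN2 and 33.1 ± 2.35 FPKM in Control. Their log2 fold changes were -0.06 (limma adjusted p = 0.53) and -0.12 (limma adjusted p = 0.12). In Lamb2 all LCN2 libraries were below all Control libraries, both as deposited and after scaling. The perlecan gene Hspg2 had 40.8 ± 0.978 FPKM with LCN2 and 42.4 ± 1.75 FPKM in Control, with a log2 fold change of 0.00 and a 95% interval from -0.09 to 0.10.

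Ratios within a library do not depend on the scaling between libraries. They were chosen after the values were seen and are given as descriptions. Lamb3 over Lamb2 was 1.93, 1.80 and 1.92 in the LCN2 libraries and 1.34, 1.23 and 1.29 in the Control libraries. Nid1 over Lamc1, the gamma chain that nidogen binds, was 1.56, 1.65 and 1.74 with LCN2 and 1.12, 1.22 and 1.34 in Control. The groups did not overlap in either ratio, and the means of LCN2 libraries were 1.46 and 1.35 times those of Control. The first ratio holds both the higher values of Lamb3 and the lower values of Lamb2 in LCN2 libraries.

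**Figure D4:**
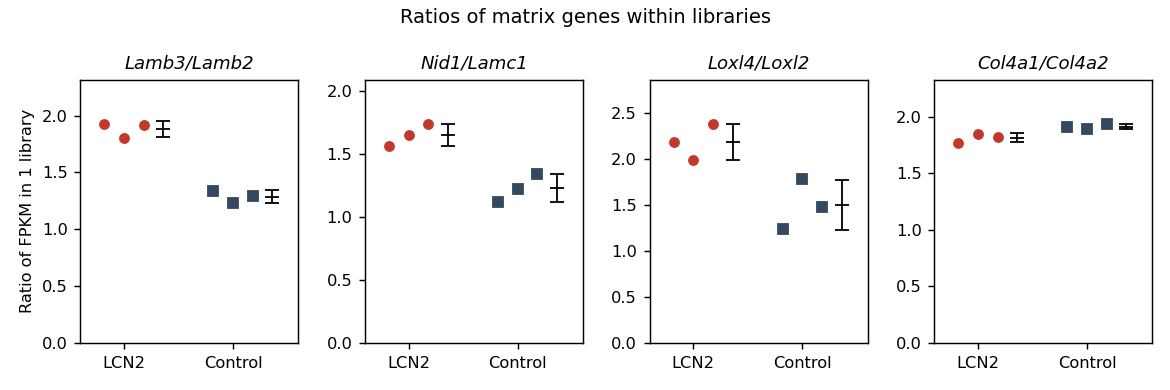
Ratios of FPKM between pairs of matrix genes in each library (symbols), with the mean and SD of each group beside them (n = 3 each), on axes that start at 0. Lamb3/Lamb2 is 1.80 to 1.93 in LCN2 libraries and 1.23 to 1.34 in Control libraries, and Col4a1/Col4a2 is 1.77 to 1.85 with LCN2 and 1.89 to 1.94 in Control.

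Type IV collagen, the sheet-forming collagen of basement membranes, showed no call. Col4a1 had 33.5, 35.6 and 36.1 FPKM in the LCN2 libraries and 35.9, 37.1 and 36.7 FPKM in the Control libraries. Its log2 fold change was 0.00, with a 95% interval from -0.11 to 0.11. Col4a2 had 18.9, 19.2 and 19.9 FPKM with LCN2 and 18.8, 19.7 and 18.9 FPKM in Control, a log2 fold change of 0.07 (95% interval -0.03 to 0.18, limma adjusted p = 0.27). In both genes the groups overlapped as deposited. After scaling Col4a1 still overlapped, while Col4a2 had 19.3, 19.5 and 20.4 FPKM with LCN2 and 18.8, 18.5 and 18.9 FPKM in Control, with no overlap. The Col4a1/Col4a2 ratio was 1.81 ± 0.0401 with LCN2 and 1.91 ± 0.0255 in Control (SD, n = 3 each), lower in every LCN2 library than in any Control library. Col18a1, whose protein releases endostatin, had 4.37 ± 0.291 FPKM with LCN2 and 3.96 ± 0.370 FPKM in Control (log2 fold change 0.17, limma adjusted p = 0.13).

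Col4a1 and Col4a2 lie head to head on chromosome 8 and overlap by 22 bases in the GENCODE M21 annotation, so that both are read from 1 shared start region. It is shown because neither gene of this pair passed the test, while Lamb3 and Nid1 did. Lama5, Lamc1, Lamb2 and Hspg2 did not pass either. The RefSeq promoter windows of GRCm38.p6, 250 bases before to 50 after each start, are printed 5′ to 3′ on each gene's own strand, with the 78 bases that both windows share (chr8:11312777-11312854) in capitals.
Col4a1 (chr8:11312777-11313076, minus strand): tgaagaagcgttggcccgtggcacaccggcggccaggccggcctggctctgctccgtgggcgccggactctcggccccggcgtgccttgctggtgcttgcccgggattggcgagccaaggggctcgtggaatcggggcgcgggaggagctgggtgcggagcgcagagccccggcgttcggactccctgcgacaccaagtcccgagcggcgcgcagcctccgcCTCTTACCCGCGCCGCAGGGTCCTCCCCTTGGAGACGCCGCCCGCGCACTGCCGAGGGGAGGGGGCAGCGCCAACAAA
Col4a2 (chr8:11312555-11312854, plus strand): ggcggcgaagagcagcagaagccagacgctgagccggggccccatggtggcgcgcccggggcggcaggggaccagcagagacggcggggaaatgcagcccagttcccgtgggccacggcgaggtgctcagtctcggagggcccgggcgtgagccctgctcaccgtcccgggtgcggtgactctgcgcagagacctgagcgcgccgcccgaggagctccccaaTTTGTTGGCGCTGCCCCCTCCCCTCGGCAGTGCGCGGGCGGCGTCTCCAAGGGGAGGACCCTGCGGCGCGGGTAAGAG

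Outside the basement membrane sheet, Col8a1 rose and Col14a1 fell. Col8a1 (chromosome 16, 57624258 to 57754737) encodes a short-chain collagen that forms hexagonal networks and was the most abundant collagen transcript here. It had 48.9, 49.7 and 51.8 FPKM in the LCN2 libraries and 39.4, 44.4 and 39.1 FPKM in the Control libraries. The groups did not overlap, and the log2 fold change was 0.35 (SE 0.047, limma adjusted p = 0.0066). Col14a1 (chromosome 15, 55307750 to 55520803) encodes a collagen that binds along the surface of fibrils. It had 12.9, 13.0 and 13.8 FPKM with LCN2 and 16.3, 17.4 and 16.6 FPKM in Control, again with no overlap. Its log2 fold change was -0.26 (SE 0.049, limma adjusted p = 0.014), and the call was lost without LCN2 replicate 1 (limma adjusted p = 0.067) and without Control replicate 3 (limma adjusted p = 0.061).

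The other tested collagens were scarce and gave no call. Col7a1, which forms the anchoring fibrils below epithelia, had 4.15 ± 0.464 FPKM with LCN2 and 3.45 ± 0.291 FPKM in Control (SD, n = 3 each; log2 fold change 0.26, limma adjusted p = 0.073). The fibrillar collagen gene Col27a1 had 1.44 ± 0.0182 FPKM with LCN2 and 1.79 ± 0.235 FPKM in Control (log2 fold change -0.15, limma adjusted p = 0.20), and all its LCN2 libraries were below all its Control libraries.

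The 2 most abundant matrix transcripts both rose. Dcn (chromosome 10, 97479609 to 97518143) encodes decorin, a small proteoglycan that binds collagen fibrils and TGF-beta and is commonly taken as a product of fibroblasts. It had 601, 577 and 608 FPKM in the LCN2 libraries and 485, 540.1 and 488 FPKM in the Control libraries. All LCN2 libraries were higher, with Control replicate 2 nearest to them. The mean was 595 ± 16.6 FPKM with LCN2 and 504 ± 30.8 FPKM in Control (SD, n = 3 each), a log2 fold change of 0.30 (SE 0.04, limma adjusted p = 0.006). Dcn was 35.7% to 36.3% of the summed FPKM of the matrix genes with LCN2, and 33.1% to 33.4% in Control. The sum itself was 1659, 1616 and 1694 FPKM in the LCN2 libraries and 1452, 1620.5 and 1474 FPKM in the Control libraries, so these overlapped as deposited. As a share of the column sum, it was 0.423%, 0.411% and 0.433% with LCN2. In Control this share was 0.364%, 0.394% and 0.372%, with no overlap.

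Fn1 (chromosome 1, 71585520 to 71653200) encodes fibronectin, the ligand of several integrins on which other matrix proteins assemble. It had 384, 356 and 399 FPKM in the LCN2 libraries and 307, 363 and 321 FPKM in the Control libraries. As deposited, LCN2 replicate 2 was below Control replicate 2. After scaling, LCN2 replicate 2 was at 360.2 FPKM and Control replicate 2 at 342 FPKM, and the groups no longer overlapped. The log2 fold change was 0.26 (SE 0.06, limma adjusted p = 0.024), the highest adjusted p among the 6 rises. The call was lost without LCN2 replicate 1 (limma adjusted p = 0.092), LCN2 replicate 3 (0.084), Control replicate 1 (0.076) or Control replicate 3 (0.080), and also with values as deposited (0.061). Exons of Fn1 overlap those of an antisense gene.

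Biglycan (Bgn), the nearest relative of decorin in this set, had 2.83 ± 0.214 FPKM with LCN2 and 2.85 ± 0.247 FPKM in Control (SD, n = 3 each; log2 fold change 0.04, 95% interval -0.17 to 0.24). The microfibril gene Fbn2 had 1.51 ± 0.215 FPKM with LCN2 and 1.23 ± 0.140 FPKM in Control (log2 fold change 0.20, limma adjusted p = 0.17).

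Matricellular proteins, which sit in the matrix and alter how cells attach and signal, were represented by Thbs1, which fell, and by Sparc and Thbs3, which did not pass. Thbs1 (chromosome 2, 118111876 to 118127133) encodes thrombospondin-1, an inhibitor of blood vessel growth and an activator of latent TGF-beta. It had 55.1, 60.3 and 54.7 FPKM in the LCN2 libraries and 66.8, 82.5 and 70.6 FPKM in the Control libraries. All LCN2 libraries were lower, and LCN2 replicate 2 was nearest to Control. The log2 fold change was -0.30 (SE 0.064, limma adjusted p = 0.021). The call was lost without LCN2 replicate 1 (limma adjusted p = 0.080), LCN2 replicate 3 (0.079) or Control replicate 3 (0.066). Exons of Thbs1 overlap those of a lincRNA gene on the other strand.

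Sparc, whose protein binds collagen as it is secreted, had 72.2, 76.0 and 71.4 FPKM with LCN2 and 84.7, 83.8 and 82.0 FPKM in Control, with no overlap. Its log2 fold change of -0.13 did not pass (SE 0.042, limma adjusted p = 0.066). It did pass without LCN2 replicate 2 (limma adjusted p = 0.040) and with values as deposited (0.024), scaled to column sums (0.034) or quantile normalized (0.034). Thbs3 had 2.26 ± 0.0451 FPKM with LCN2 and 2.34 ± 0.516 FPKM in Control (SD, n = 3 each; log2 fold change 0.02, 95% interval -0.21 to 0.26), and its exons overlap those of Mtx1.

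The lysyl oxidase family, which oxidises lysines of collagen and elastin so that they cross-link, was represented by Loxl4 and Loxl2. Loxl4 (chromosome 19, 42593982 to 42612813) had 77.5, 73.1 and 80.7 FPKM in the LCN2 libraries and 55.1, 68.1 and 60.5 FPKM in the Control libraries. All LCN2 libraries were higher, though LCN2 replicate 2 and Control replicate 2 were near each other. The log2 fold change was 0.39 (SE 0.067, limma adjusted p = 0.012), and the call was lost without LCN2 replicate 1 (limma adjusted p = 0.059) or LCN2 replicate 3 (0.051). Loxl2 had 35.5, 37.0 and 34.0 FPKM with LCN2 and 44.5, 38.2 and 40.8 FPKM in Control, a log2 fold change of -0.15 that did not pass (SE 0.075, limma adjusted p = 0.19) except without Control replicate 2 (limma adjusted p = 0.045). Exons of Loxl2 overlap those of an antisense gene and a microRNA. The Loxl4/Loxl2 ratio was 2.18, 1.98 and 2.38 in the LCN2 libraries and 1.24, 1.78 and 1.48 in the Control libraries.

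**Figure D5:**
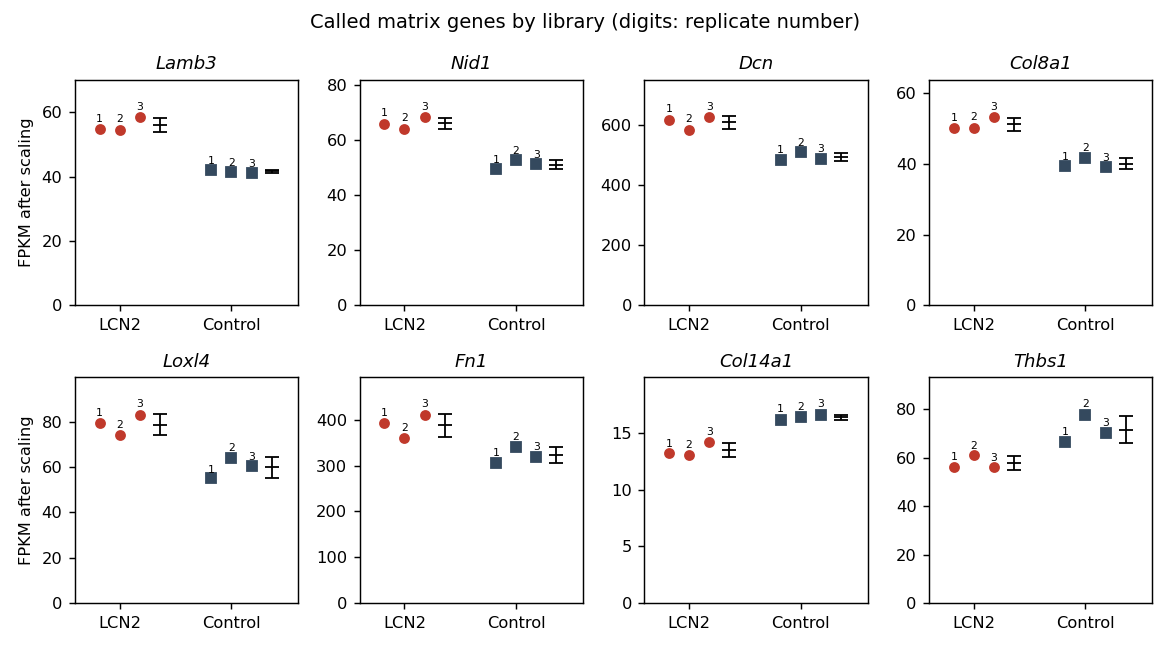
FPKM after scaling between libraries of the 8 called matrix genes (digits give the replicate number; bars beside the symbols are the mean and SD, n = 3 each), on axes that start at 0. Lamb3, Nid1, Dcn, Col8a1, Loxl4 and Fn1 lie higher in all LCN2 libraries, and Col14a1 and Thbs1 lower, with LCN2 replicate 2 nearest to Control in Dcn, Fn1, Loxl4, Nid1, Lamb3 and Thbs1.

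Promoter windows were at hand for 15 of the 23 tested genes, 17 windows in all, as some genes have several starts. Short motifs were searched on both strands. For the AP-1 factors, which join Fos and Jun proteins, the letters were TGANTCA. For the TEAD factors, the partners of YAP in the Hippo pathway, they were GGAATG. For the SMAD proteins, which carry the TGF-beta signal into the nucleus, they were CAGACA. For the stress factor ATF4 a core of its element was used, TTGCATC. The TATA box, where transcription machinery assembles at some promoters, was searched as TATAAA. The TEAD letters were in 3 of the 17 windows and in 14.7% of all 32851 promoter windows, and the SMAD letters in 6 of 17 and in 21.0% of all. The AP-1, ATF4 and TATA letters were in 0 of 17, and in 7.81%, 2.53% and 13.6% of all windows. A match describes the letters and not a bound site. The windows of Nid1, Lamb3, Col8a1 and Loxl4 are shown, the called genes that had one. None was at hand for Dcn, Fn1, Thbs1 or Col14a1. Capitals mark matches, which are TEAD in Nid1 (165 bases before the start) and the second Lamb3 start, and SMAD in the first Lamb3 start and Col8a1. No match overlapped another in these windows, and Loxl4 had none. Genes not called had matches as well: SMAD in Lamb2, Col7a1, Col18a1 and Sparc, and TEAD in Col18a1. The Lamb3 starts are numbered in the order of the windows at hand. Both lie inside the gene as annotated in GENCODE M21, which begins at 193207699.
Nid1 (chr13:13437352-13437651, plus strand): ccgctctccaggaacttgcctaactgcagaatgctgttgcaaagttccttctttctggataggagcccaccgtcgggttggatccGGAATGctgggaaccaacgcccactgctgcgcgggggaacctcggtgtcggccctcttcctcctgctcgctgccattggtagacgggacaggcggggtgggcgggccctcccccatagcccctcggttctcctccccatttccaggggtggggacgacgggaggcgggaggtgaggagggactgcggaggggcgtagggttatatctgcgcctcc
Lamb3, first start (chr1:193301744-193302043, plus strand): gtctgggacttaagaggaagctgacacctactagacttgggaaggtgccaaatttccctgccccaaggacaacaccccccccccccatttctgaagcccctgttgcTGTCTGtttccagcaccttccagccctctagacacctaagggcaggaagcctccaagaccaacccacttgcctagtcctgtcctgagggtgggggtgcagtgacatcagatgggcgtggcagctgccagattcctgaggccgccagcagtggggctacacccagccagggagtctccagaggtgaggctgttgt
Lamb3, second start (chr1:193301993-193302292, plus strand): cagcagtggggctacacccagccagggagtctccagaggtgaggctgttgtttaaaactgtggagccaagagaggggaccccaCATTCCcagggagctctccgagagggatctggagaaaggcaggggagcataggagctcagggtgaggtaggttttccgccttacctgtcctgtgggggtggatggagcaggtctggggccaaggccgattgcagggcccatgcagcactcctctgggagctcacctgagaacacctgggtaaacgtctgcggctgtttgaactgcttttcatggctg
Col8a1 (chr16:57754688-57754987, minus strand): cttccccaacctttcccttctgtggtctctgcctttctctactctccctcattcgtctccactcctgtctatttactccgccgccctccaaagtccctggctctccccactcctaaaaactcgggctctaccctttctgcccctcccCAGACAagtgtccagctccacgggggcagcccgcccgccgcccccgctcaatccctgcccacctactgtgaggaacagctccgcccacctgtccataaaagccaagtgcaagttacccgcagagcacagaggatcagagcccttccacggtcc
Loxl4 (chr19:42612757-42613056, minus strand): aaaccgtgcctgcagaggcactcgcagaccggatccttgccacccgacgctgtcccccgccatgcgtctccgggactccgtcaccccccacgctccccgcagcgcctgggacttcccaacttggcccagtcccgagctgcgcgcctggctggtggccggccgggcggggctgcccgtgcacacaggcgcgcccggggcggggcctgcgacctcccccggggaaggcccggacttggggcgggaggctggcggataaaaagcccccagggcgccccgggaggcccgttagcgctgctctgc

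Genes that fold, modify and process collagen went both ways. Of 18 tested, 4 rose and 4 fell, and the median of the log2 fold changes was -0.064. This is 44.4% called, beside 21.6% of all genes tested. The rises with the smallest adjusted p were in Tmem38b, an ion channel of the endoplasmic reticulum needed for collagen folding (4.71 FPKM with LCN2 and 3.36 FPKM in Control, log2 fold change 0.44, limma adjusted p = 0.0075), Colgalt1, which adds galactose to hydroxylysine (0.26, 0.012), the procollagen protease gene Adamts14 (0.71, 0.016) and Bmp1, the procollagen C-proteinase (0.22, 0.038). The falls with the smallest adjusted p were in an alpha and the beta subunit of collagen prolyl 4-hydroxylase. P4ha1 had 29.3, 34.4 and 29.1 FPKM in the LCN2 libraries and 47.0, 40.0 and 55.2 FPKM in the Control libraries (log2 fold change -0.53, limma adjusted p = 0.029), and P4hb had 215, 221 and 210.1 FPKM with LCN2 and 247, 254 and 245 FPKM in Control (-0.15, 0.023). The other 2 falls, in the proteinase enhancers Pcolce (limma adjusted p = 0.039) and Pcolce2 (limma adjusted p = 0.043), were named after their values were seen. Tmem38b was called whichever library was left out. Colgalt1 and Adamts14 were lost without LCN2 replicate 1 or Control replicate 3 (limma adjusted p of up to 0.062), and P4hb and P4ha1 without LCN2 replicate 1, LCN2 replicate 3, Control replicate 1 or Control replicate 3 (up to 0.10). Bmp1 was lost without any 1 of the 6 libraries (up to 0.12) and with values as deposited (0.13). Without LCN2 replicate 1, 1 gene was higher and 0 lower, without Control replicate 3 likewise 1 and 0, without Control replicate 1 or LCN2 replicate 3, 3 and 0, and without Control replicate 2, 3 and 6.

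Among other glycoproteins and proteoglycans of the matrix, 6 of 16 tested genes rose and 0 fell in limma, while 1 was lower at an unadjusted p under 0.05. This is 37.5% called, all of them higher, beside 11.7% of all genes called higher and 9.94% lower. Ccn2, a matricellular growth factor, had 118, 101 and 127 FPKM in the LCN2 libraries and 60.3, 79.2 and 71.9 FPKM in the Control libraries (log2 fold change 0.77, limma adjusted p = 0.0072). Its relative Ccn1 had 64.0, 54.4 and 59.8 FPKM with LCN2 and 25.4, 43.5 and 38.0 FPKM in Control (0.81, 0.017). The others were serglycin (Srgn, 0.42), Crim1 (0.40), osteopontin (Spp1, 0.19) and Mfge8 (0.16). Ccn2 was called whichever library was left out. Srgn was lost without LCN2 replicate 1 (limma adjusted p = 0.052), and Crim1 and Ccn1 without LCN2 replicate 1, LCN2 replicate 3 or Control replicate 3 (up to 0.074). Mfge8 and Spp1 were called in 1 of these 6 fits, the one without LCN2 replicate 2 (otherwise up to 0.11), and were lost with values as deposited (0.15 and 0.12). The number higher was 1 without LCN2 replicate 1 and 2 without LCN2 replicate 3 or Control replicate 3.

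Among matrix receptors other than integrins, 4 of 16 tested rose and 1 fell, which is 31.2% called beside 21.6% of all genes tested. Cd47, a receptor of thrombospondin-1, had 17.9, 17.3 and 17.1 FPKM in the LCN2 libraries and 13.2, 13.4 and 14.0 FPKM in the Control libraries (log2 fold change 0.40, limma adjusted p = 0.0063). The syndecans Sdc4 (0.31) and Sdc1 (0.21) and the collagen receptor Ddr2 (0.27) rose as well. The laminin receptor gene Dag1 fell, with 20.0, 24.2 and 19.0 FPKM in the LCN2 libraries and 28.4, 26.8 and 27.9 FPKM in the Control libraries (-0.33, limma adjusted p = 0.038). Cd47 was called whichever library was left out. Sdc4 lost its call without either LCN2 replicate 1 or replicate 3 (limma adjusted p of up to 0.075), Sdc1 without LCN2 replicate 1, LCN2 replicate 3, Control replicate 2 or Control replicate 3 (up to 0.081), and Ddr2 and Dag1 without LCN2 replicate 1, LCN2 replicate 3, Control replicate 1 or Control replicate 3 (up to 0.12). Sdc1 and Ddr2 were also lost with values as deposited (0.065 and 0.083). Without LCN2 replicate 1 or LCN2 replicate 3, 1 receptor was higher and 0 lower, without Control replicate 3, 2 and 0, and without Control replicate 1, 3 and 0. Among the genes named from these lists, exons of Colgalt1, Crim1, Ccn2 and Ddr2 overlap those of a gene on the opposite strand, and those of Tmem38b and Spp1 a gene on the same strand, so their values may hold reads of both.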

How the data were processed

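RNA of EO771 cells was purified with an RNeasy kit and made into libraries with a SMARTer mRNA kit, per the labels' protocols. The authors deposited 1 table of 19832 genes whose name speaks of raw counts, yet none of its values above 0 is a whole number. The deposited values were treated as FPKM: this unit is inferred, since values times the longest annotated transcript in kilobases summed to between 1032628 and 1095179 per library. The build was GRCm38, per the submitters' processing notes; the sources used here give no aligner, quantifier or treatment of strand. Read depth is unknown, so counting intervals are not given: among 242 to 281 low genes with 1 transcript, the commonest ratio between libraries was shared by 3 to 5 within 0.002 on the log2 scale.

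Libraries were scaled by the trimmed mean of M-values without weights (trims of 0.3 for ratios and 0.05 for levels; size factors 0.973 to 1.06). Genes that averaged 1 FPKM or more were fitted with limma 3.58.1 in R 4.3.3 on log2(FPKM + 1) with a variance trend and no replicate term, two-sided, with Benjamini-Hochberg adjustment. Log2 fold changes are LCN2 minus Control and understate those of low genes. Levels are FPKM as deposited. The fit was also run on simulated data with noise drawn separately for each gene. Apart from library offsets, those data hold no shift shared among genes, so the calls reported here are not tested by them. Coordinates and exon overlaps are from GENCODE M21, and promoter windows from RefSeq (GRCm38.p6).

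The genes and lists were chosen with earlier results of these data known. The rule for names takes every tested matrix gene, but 1 of the 23 is counted in the totals and not reported here. In each of 3 pathway lists, the rule takes up to 6 called genes with the smallest adjusted p. Of the listed pathway genes, 6 of 32, 11 of 59 and 0 of 21 were not analysed here. Alternatives were 4 other scalings, a pseudocount of 0.1, filters at a mean of 0.1 FPKM and at none, no variance trend, a replicate block, and leaving out each library.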

Additional observations from a re-analysis of the deposited data

How the results depend on the processing

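All 8 called matrix genes kept their direction in each of the 15 alternatives. Fn1 also lost its call after quantile normalization (limma adjusted p = 0.051) and with no filter on low values (0.050). Fbn1, listed only in the reported fit, was called with no filter. When 1 library was left out, matrix genes numbered 4 to 7 higher and 0 to 3 lower, collagen folding, modification and processing genes 1 to 4 higher and 0 to 6 lower, other glycoproteins and proteoglycans 1 to 6 higher and 0 lower, receptors 1 to 5 higher and 0 to 1 lower, and all genes 174 to 1596 higher and 90 to 1551 lower. With values as deposited, 693 genes were higher and 1680 lower (70.8% of calls lower, beside 46.0% after the reported scaling), 7 collagen processing genes were lower, and 2 receptors were higher and 2 lower. Scaled to equal column sums (950 higher and 1308 lower, 57.9% lower) 7 collagen processing genes and 2 receptors were lower. Quantile normalization gave 1109 genes higher and 1164 lower, with 2 receptors among the lower. The median of the tested matrix genes was -0.0087 as deposited and above 0 in the other 4 scalings. With no filter on low values 602 genes, 1 collagen processing gene, 1 other glycoprotein gene and 0 receptors were lower. When genes averaging 0.1 FPKM or more were tested, 1 other glycoprotein gene was lower, and without a variance trend 2 collagen processing genes and 1 other glycoprotein gene were lower. Where genes of low value enter the test, p-values are adjusted over more genes (12082 or 14088 in place of 10309); the cause of the other shifts was not tested.

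The replicate numbers are not shown to pair the samples. Deviations from the group means of libraries with the same number correlated at -0.224, -0.261 and 0.00863 across genes. With the replicate number as a block, 164 genes were higher and 73 lower, among them 3 matrix genes higher and 1 lower, 0 collagen processing genes in either direction, 2 other glycoprotein genes higher, and 1 receptor higher and 0 lower. Lamb3, Nid1, Dcn and Thbs1 kept their calls with the block, Thbs1 only just (limma adjusted p = 0.050 after rounding, the same as Col8a1). Col8a1 (limma adjusted p = 0.050), Loxl4 (0.055), Col14a1 (0.062) and Fn1 (0.080) lost theirs. No read counts are at hand, so what depth limits cannot be given, and a gene that did not pass is not shown to be unchanged.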
